A study of Mus musculus with 11 samples.

Results

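Bone morphogenetic proteins (BMPs) are secreted ligands of the TGF-beta superfamily that bind pairs of type I and type II serine/threonine kinase receptors and activate SMAD1, SMAD5 and SMAD9 in the receiving cell. Secreted antagonists such as follistatin and gremlin bind ligands outside the cell and keep them from their receptors. In adipose tissue the pathway is known for its part in committing stem cells to the adipocyte lineage, and in blood vessels for its part in endothelial quiescence.

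Here 9 genes of this pathway were followed across the stromal vascular fraction of mouse perigonadal white adipose tissue (pgWAT). They are the ligands Bmp2, Bmp4, Bmp6 and Bmp7, the type I receptors Bmpr1a (ALK3) and Acvrl1 (ALK1), the type II receptor Bmpr2, and the antagonists Fst (follistatin) and Grem1 (gremlin 1). They were chosen by symbol, and each matched 1 row, so that all 9 were found among the 23507 gene rows of the count matrix.

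The cells came from adult C57BL6/J mice that carried a Pdgfrb-GFP transgene, a reporter of mural and fibroblast-like cells, and no further treatment is named. After a gate for CD45-negative cells they were sorted for PDGFRB reporter or CD31, and in mouse 2 also for DPP4, and were sequenced by Smart-seq2, a plate-based full-length method without molecular identifiers. The matrix held 3261 cells from 11 plates and 7 mouse ids, of which 3 were male (mice 1, 4 and 8) and 4 were female (mice 2, 3, 5 and 6/7, the last being 2 animals under a joint id). Each plate held cells of a single mouse id, so a difference between mice cannot be told apart from a difference between plates. Mice 1, 2 and 6/7 had more than 1 plate. Gene reads per cell ran from 141935 to 3526227 with a median of 616939, and gene reads per mouse id from 142073502 to 804760036. No plate and well occurred more than once (0 duplicates).

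Cells were clustered without any BMP pathway gene and named by markers that are not among the 9 genes. Adipose stem cells (ASC-like) made up 2249 cells from 7 mouse ids, blood endothelial cells (EC-like) 559 cells from 5, and macrophage-like cells 137 cells from 2 (mice 1 and 5). In mouse 1, 242 of 244 ASC-like cells were on the plate sorted for PDGFRB, and the CD31 sort had another plate. All ASC-like cells of mouse 2 were on plates sorted for PDGFRB, and its CD31 sort also had another plate. In mice 1 and 2 class, plate and sort thus ran largely together, and their parts were not tested. Pericyte-like and vascular smooth muscle-like (VSMC-like) cells were joined as mural-like cells, for which only mouse 1 (82 cells) and mouse 2 (13 cells) had the 10 cells required for a sum. The macrophage-like cells carried their markers at 3463 and 5749 counts per 1000000 gene reads (CPM) in sum, against 2.77 to 9.76 CPM in ASC-like cells, although the gate was set against CD45. The mural sum of mouse 2 carried 5342 CPM of EC markers and that of mouse 1 carried 523 CPM, where EC-like cells had 2692 to 8228 CPM. The EC-like cells in turn carried 1347 to 3677 CPM of 10 adipocyte genes, against 31.0 to 63.3 CPM in ASC-like cells. The part of these signals in the results below was not tested.

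Positions are given on GRCm38 (mm10) from GENCODE vM21, as whole genes from the first to the last exon base. Bmp2 (ENSMUSG00000027358) lies at chr2:133552159-133562885 on the plus strand, Bmp4 (ENSMUSG00000021835) at chr14:46383520-46390669 on the minus strand, Bmp6 (ENSMUSG00000039004) at chr13:38345107-38500302 on the plus strand and Bmp7 (ENSMUSG00000008999) at chr2:172868012-172940321 on the minus strand. Bmpr1a (ENSMUSG00000021796) lies at chr14:34410734-34503341 on the minus strand, Bmpr2 (ENSMUSG00000067336) at chr1:59763400-59879014 on the plus strand and Acvrl1 (ENSMUSG00000000530) at chr15:101128522-101145336 on the plus strand. Fst (ENSMUSG00000021765) lies at chr13:114452290-114458951 and Grem1 (ENSMUSG00000074934) at chr2:113746164-113758646, both on the minus strand. The library method does not mark strand, and Bmp6 shares 224 of its 3900 exon bases with Txndc5 on the opposite strand, while Acvrl1 shares 127 of 4265 with Gm16031. Txndc5 was at 110 to 442 CPM in ASC-like cells and at 12.3 to 85.4 CPM in EC-like cells, the opposite order to that of Bmp6 given below. Among the ASC subtypes its median was 293 CPM in ASC2, 266 in ASC1a and 269 in ASC1b, in the same direction as Bmp6, and the part of such reads was not tested.

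The 9 genes differed widely in how many cells carried them. Acvrl1 had reads in 2451 of the 3261 cells, Fst in 1842, Bmpr2 in 1802 and Bmpr1a in 1291. The ligands were sparser, with Bmp7 in 845 cells, Bmp4 in 685, Bmp6 in 519 and Bmp2 in 316. Grem1 had 937 reads in 45 cells and fell below the filter of more than 600 summed reads in at least 2 sums, so it was described and not tested. Levels below are CPM relative to the gene reads of all cells of a class in a mouse, with the mean ± SD over mouse ids. Compared per exon length, as RPKM, the CPM divided by the exon length in kilobases, Acvrl1 was the highest of the 9 in every class, at a mean of 22.1 RPKM in ASC-like cells, 29.9 in EC-like, 8.24 in mural-like and 4.31 in macrophage-like cells. The next gene per length differed by class, being Fst in ASC-like cells (16.4 RPKM), Bmp6 in EC-like (12.8 RPKM) and mural-like cells (6.88 RPKM), and Bmp2 in macrophage-like cells (3.85 RPKM).

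**Figure D1:**
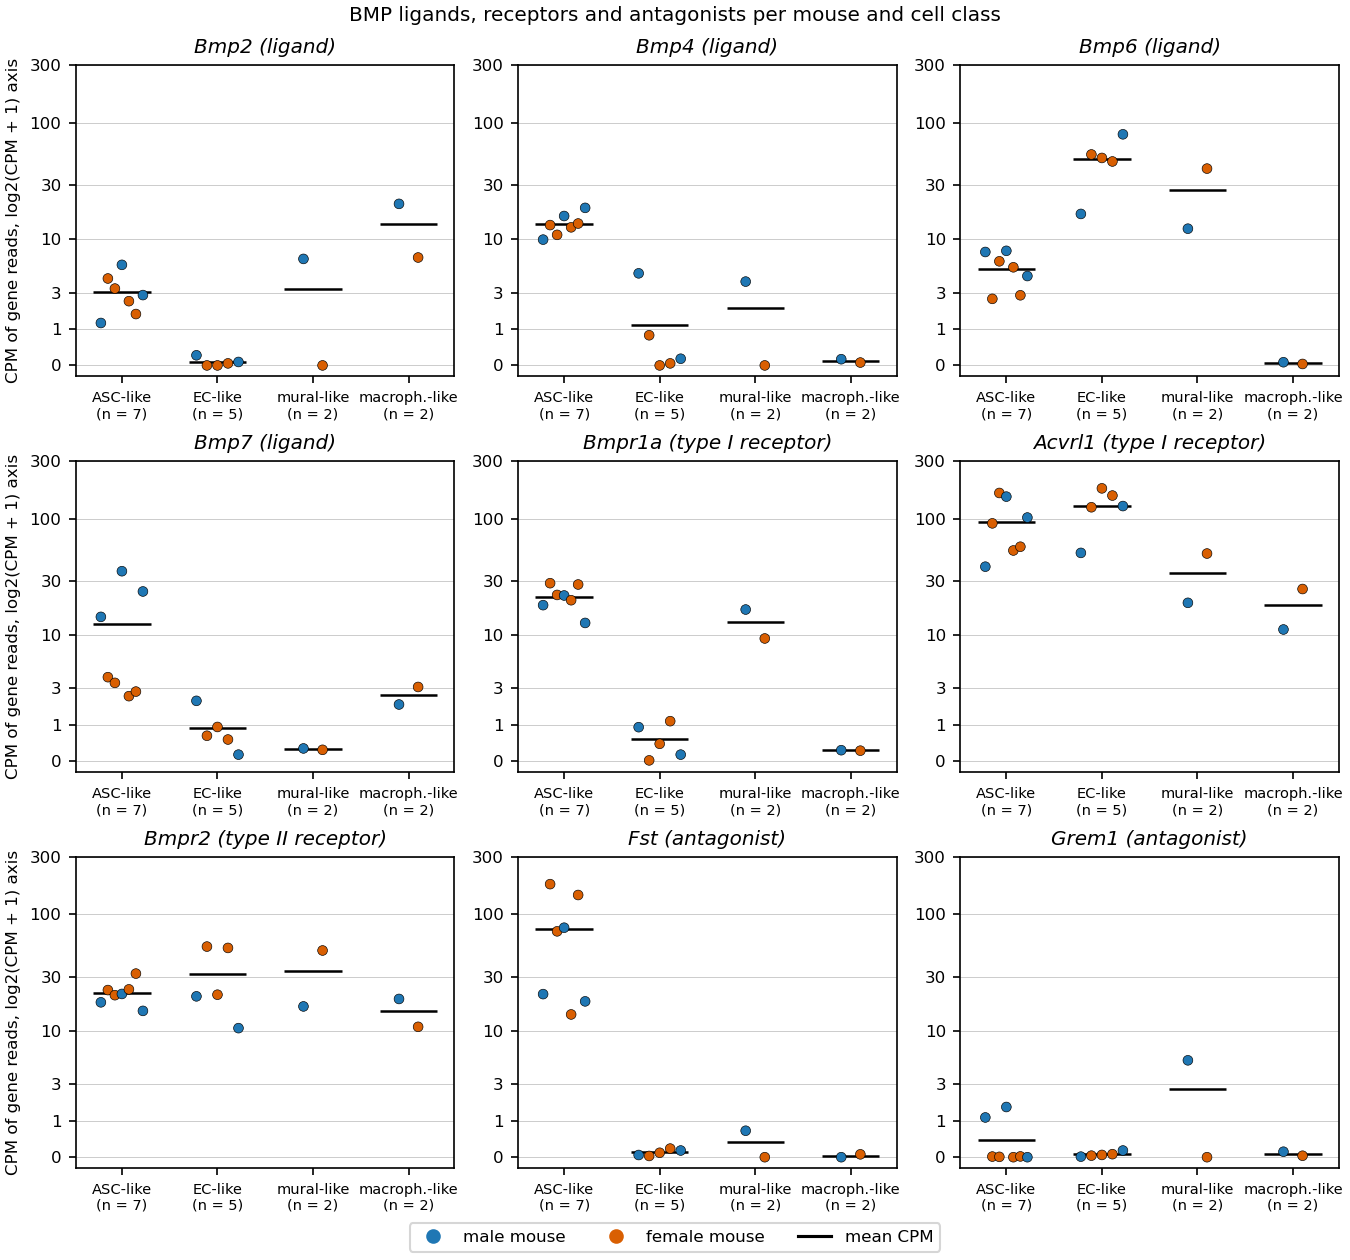
Level of each of the 9 genes (CPM of gene reads on a log2(CPM + 1) axis) in ASC-like, EC-like, mural-like and macrophage-like cells, with 1 point per mouse id coloured by sex and a line at the mean CPM. Bmpr1a and Fst were high in ASC-like cells and near 0 in EC-like cells, Bmp4 was likewise except in the EC-like cells of mouse 1 (4.76 CPM), Bmp6 was high in EC-like and mural-like cells, and Acvrl1 and Bmpr2 had reads in all 4 classes.

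The ligands had different sources. Bmp4 came mainly from ASC-like cells, where it lay between 9.93 and 19.0 CPM with a median of 13.4 (13.7 ± 3.07, n = 7). In EC-like cells Bmp4 was at 4.76 CPM in mouse 1, 0.774 in mouse 2, 0 in mouse 5, 0.0395 in mouse 6/7 and 0.135 in mouse 8. In mural-like cells it was at 3.92 CPM in mouse 1 and 0 in mouse 2, and in macrophage-like cells at 0.125 and 0.0560 CPM in mice 1 and 5. The range of the ASC-like cells did not overlap that of any other class, and the other 3 classes overlapped each other.

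Bmp6 showed another order, with the highest mean in EC-like cells and the next in mural-like cells. EC-like cells had 16.8 CPM in mouse 1, 54.2 in mouse 2, 50.7 in mouse 5, 47.3 in mouse 6/7 and 79.99 in mouse 8 (49.8 ± 22.5, n = 5), and mural-like cells had 12.5 and 41.2 CPM in mice 1 and 2. ASC-like cells had 2.55 to 7.83 CPM with a median of 5.46 (5.28 ± 2.14, n = 7). Macrophage-like cells had 5 Bmp6 reads in all. EC-like and mural-like cells overlapped, and both lay above ASC-like cells, which lay above macrophage-like cells. The mural sum of mouse 2, with the higher Bmp6, carried 5342 CPM of EC markers, and that of mouse 1 carried 523 CPM. The part of EC reads in the mural Bmp6 level was not tested.

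Bmp2 was low in ASC-like cells, at 1.24 to 5.77 CPM with a median of 2.81 (3.06 ± 1.56, n = 7), and close to absent from EC-like cells, which had 23 reads in 20 of 559 cells. Among the 4 classes its highest mean was in macrophage-like cells, at 20.6 CPM in mouse 1 with reads in 24 of 76 cells and 6.78 CPM in mouse 5 with reads in 11 of 61 cells. Mural-like cells had 6.58 and 0 CPM in mice 1 and 2. Macrophage-like cells lay just above mural-like cells by CPM of all gene reads, and overlapped them relative to reads outside ribosomal RNA (57.1 and 14.6 against 22.8 and 0 CPM). Mural-like cells overlapped ASC-like cells.

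Bmp7 was the least even of the ligands. In ASC-like cells it ran from 2.45 to 36.1 CPM with a median of 3.95 (12.5 ± 13.2, n = 7), and the spread followed the sex of the mouse, as given below. Macrophage-like cells had 1.94 CPM in mouse 1 with reads in 34 of 76 cells and 3.11 CPM in mouse 5 with reads in 36 of 61 cells. EC-like cells had 2.16, 0.626, 0.921, 0.514 and 0.135 CPM in mice 1, 2, 5, 6/7 and 8, and mural-like cells 0.277 and 0.244 CPM. Neighbouring classes in this order overlapped.

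The receptors were arranged differently from each other. Bmpr1a, a type I receptor for BMP2 and BMP4, lay between 12.9 and 28.6 CPM in ASC-like cells with a median of 22.4 (21.9 ± 5.41, n = 7), and at 16.9 and 9.34 CPM in the mural-like cells of mice 1 and 2. In EC-like cells it was at 0.914, 0.0179, 0.395, 1.15 and 0.135 CPM in mice 1, 2, 5, 6/7 and 8, from 158 reads in 21 of 559 cells, and in macrophage-like cells at 0.235 and 0.224 CPM from 23 reads. ASC-like and mural-like cells thus overlapped each other and lay above EC-like and macrophage-like cells, which also overlapped.

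Acvrl1, known as an endothelial type I receptor for BMP9 and BMP10, was not limited to endothelial cells. EC-like cells had 51.6, 124, 178, 155 and 127 CPM in mice 1, 2, 5, 6/7 and 8 (127 ± 47.8, n = 5), and ASC-like cells had 39.5 to 163 CPM with a median of 91.2 (94.4 ± 48.5, n = 7). Mural-like cells had 19.4 and 51.0 CPM in mice 1 and 2, and macrophage-like cells 11.3 and 25.5 CPM in mice 1 and 5. Each class overlapped its neighbour in this order, but relative to reads outside ribosomal RNA ASC-like, mural-like and macrophage-like cells stood apart.

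Bmpr2, the type II receptor shared by most BMPs, differed least between classes. It lay at 15.1 to 31.8 CPM in ASC-like cells with a median of 21.3 (21.9 ± 5.22, n = 7), and at 20.3, 53.8, 21.0, 52.5 and 10.6 CPM in the EC-like cells of mice 1, 2, 5, 6/7 and 8 (31.6 ± 20.1, n = 5). Mural-like cells had 16.6 and 49.9 CPM and macrophage-like cells 19.3 and 10.9 CPM. All 4 classes overlapped, and within mice EC-like cells were above ASC-like cells in 3 of 5.

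Of the antagonists, Fst was nearly confined to ASC-like cells among the 4 classes with sums. There it ran from 14.1 to 179 CPM with a median of 72.3 (75.3 ± 65.2, n = 7), with mice 1, 5 and 8 below the other 4. EC-like cells had 21 Fst reads in 16 of 559 cells, at 0.0425, 0.0238, 0.0877, 0.178 and 0.135 CPM in mice 1, 2, 5, 6/7 and 8. Mural-like cells had 0.654 and 0 CPM, and macrophage-like cells had 2 reads in all.

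Grem1 was rare and uneven. In ASC-like cells it was at 1.13 and 1.60 CPM in the males 1 and 4 and 0 in male 8, and at 0.0118, 0.00661, 0 and 0.0150 CPM in females 2, 3, 5 and 6/7. Of its 937 reads in all classes, 520 were in 15 cells of mouse 1 and 394 in 17 cells of mouse 4. Its 5.31 CPM in the mural-like cells of mouse 1 came from 268 reads in 3 cells. At these numbers no class could be named as the source of Grem1.

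Against ASC-like cells of the same fit, EC-like cells had higher Bmp6 and lower Bmp2, Bmp4, Bmp7, Bmpr1a and Fst. A gene was called where edgeR's quasi-likelihood test with Benjamini-Hochberg adjustment over all genes gave an adjusted p below 0.05 and the fold was above 2.6. Of all 12841 genes tested, 21.8% were called, 8.19% higher and 13.6% lower in EC-like cells, and of the 8 members tested 1 was called higher and 5 lower. The median log2 fold change was -4.53 over the 8 members and -0.19 over all genes. Bmp6 was higher by 3.21 on the log2 scale (SE 0.58, edgeR adjusted p = 0.00274), and was called in 19 of 19 processing settings.

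Fst had the largest difference, with a log2 fold change of -9.87 (SE 1.40, edgeR adjusted p = 0.000735), followed by Bmp2 at -6.80 (SE 1.64, adjusted p = 0.0132). Bmpr1a was lower in EC-like cells by -6.11 (SE 0.91, edgeR adjusted p = 0.000947), and like Fst it was called in 19 of 19 settings. Bmp4 was at -5.83 (SE 1.60, edgeR adjusted p = 0.0238) and Bmp7 at -3.23 (SE 0.90, adjusted p = 0.0255). The calls of the last 2 and of Bmp2 rested on single mice. Bmp4 lost its call without mouse 5, 6/7 or 8 (edgeR adjusted p = 0.0632, 0.0810 and 0.0693) and without the mouse block (log2 fold change -3.37, adjusted p = 0.0683). Bmp7 lost it without mouse 1, 2 or 6/7 (edgeR adjusted p = 0.105, 0.0803 and 0.0670), and Bmp2 without mouse 5 (adjusted p = 0.0540).

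Acvrl1 and Bmpr2 were not called between EC-like and ASC-like cells. Acvrl1 was higher in EC-like cells in 5 of 5 mice, with a log2 fold change of 0.68 (SE 0.29, edgeR adjusted p = 0.126). Bmpr2 had a log2 fold change of 0.10 (SE 0.35, edgeR adjusted p = 0.868).

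In macrophage-like cells Bmp6, Bmpr1a, Acvrl1 and Fst were lower than in ASC-like cells and no member was called higher. Of all genes 15.1% were called in this comparison, 5.94% higher and 9.12% lower, beside 4 of the 8 members, all lower. The median log2 fold change was -4.12 over the members and -0.19 over all genes. Fst, Bmp6 and Bmpr1a had 2, 5 and 23 reads in macrophage-like cells and passed the filter through other classes, so the same limit on count and median holds here. Bmpr1a was at -6.97 on the log2 scale (SE 1.45, edgeR adjusted p = 0.0110), Bmp6 at -6.52 (SE 1.07, adjusted p = 0.00369) and Acvrl1 at -1.64 (SE 0.44, adjusted p = 0.0336). For Fst, the 2 macrophage reads against the ASC-like reads of the same mice gave a ratio of 0.00103 with an exact 95% interval of 0.000125 to 0.00373 for counting error only. Bmp2, whose mean was highest in macrophage-like cells, had a log2 fold change of 1.09 with an SE of 1.98 (edgeR adjusted p = 0.796), and Bmp7 was at -1.72 (adjusted p = 0.472).

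The macrophage comparison rested on 2 mice. Without mouse 1, 1 member was called, and without mouse 5 none was (0), the spread of the lone remaining macrophage sum then being taken from the other sums. Bmp4 was at a log2 fold change of -8.87 and just missed the threshold (edgeR adjusted p = 0.0583). Bmpr2 was at -0.31 (edgeR adjusted p = 0.766).

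In mural-like cells 0 of the 8 members were called against ASC-like cells, where 8.14% of all genes were. By the quasi-likelihood test of edgeR 4 of them had an unadjusted p below 0.05, and 4 each were called by edgeR's likelihood ratio test and by DESeq2. Fst was at a log2 fold change of -6.71 (edgeR adjusted p = 0.0581), Bmp7 at -4.97 (adjusted p = 0.0740), Bmp6 at 2.39 (adjusted p = 0.0851) and Bmp4 at -5.87 (adjusted p = 0.194). Over the 19 settings the log2 fold change of Bmp6 ran from 0.79 to 3.48. Bmpr1a, at -0.88 (edgeR adjusted p = 0.699), and Bmpr2, at 0.11 (adjusted p = 0.940), overlapped between the 2 classes. Acvrl1 was at -0.77 (edgeR adjusted p = 0.325) and Bmp2 at -1.90 (adjusted p = 0.682).

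Compared directly, EC-like cells had lower Bmpr1a than mural-like cells, with a log2 fold change of -5.23 (SE 1.06, edgeR adjusted p = 0.0370). It was the only member called (1 of 8), where 2.29% of all genes were called. The call was lost without mouse 1, 5, 6/7 or 8 (edgeR adjusted p = 0.244, 0.132, 0.0654 and 0.0697), with at least 20 cells per sum (adjusted p = 0.111) and with each cell named by its own markers (adjusted p = 0.0735). Bmp6 did not differ beyond its spread between these classes, at 0.82 on the log2 scale (edgeR adjusted p = 0.718). Acvrl1 was at 1.45 (edgeR adjusted p = 0.156), and at 2.89 (adjusted p = 0.0430) once cells rich in the markers of another class were left out. Bmp2 was at -4.89 (edgeR adjusted p = 0.318).

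**Figure D2:**
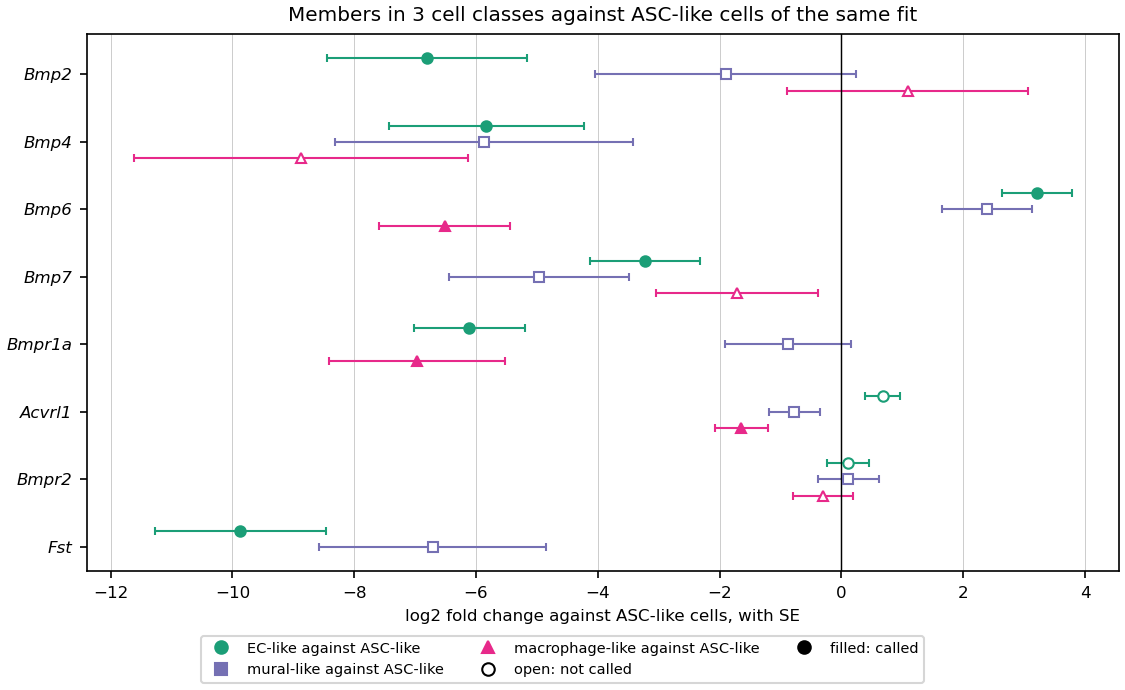
Log2 fold change with its SE for 8 of the 9 genes in EC-like, mural-like and macrophage-like cells, each against the same ASC-like sums, where filled symbols passed the threshold and open symbols did not. Bmp6 lay to the right of 0 in EC-like cells at 3.21 and to the left in macrophage-like cells at -6.52. Grem1 was not tested, and Fst in macrophage-like cells, with 2 reads, is not drawn.

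The smaller classes had too few cells per mouse for a test and are given as pooled levels with exact Poisson intervals that cover counting error only, since reads without molecular identifiers are not independent molecules. Bmp2 was at 16.5 CPM (15.0 to 18.2) in the 41 VSMC-like cells and at 0.573 CPM in the 60 pericyte-like cells. Acvrl1 had the opposite order, with 2.81 CPM in VSMC-like and 40.2 CPM in pericyte-like cells, while Bmpr1a was at 28.0 and 6.04 CPM. The mural-like sums join both kinds of cell, and the sum of mouse 2 was mostly pericyte-like by its markers (3700 CPM of pericyte and 382 CPM of VSMC markers, against 1670 and 6645 CPM in mouse 1).

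The 22 lymphatic EC-like cells stood apart from blood EC-like cells in their ligand. They had Bmp4 at 30.6 CPM (27.7 to 33.7), which came from 415 reads in 5 cells, and Bmp6 at 5.16 CPM, with Acvrl1 at 94.2 CPM. They had 0 Fst reads, which by the floor of 3 counts allows a level of up to 0.221 CPM. The 19 epithelial-like cells, all from mouse 1, had Bmp7 at 20.4 CPM from 216 reads in 10 cells. The 266 Grem1 reads of the pericyte-like cells came from 1 cell.

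To compare how many cells carried each gene at an equal number of gene reads, every cell was thinned to 100000, which left out 0 cells. Ribosomal RNA rows are among these reads, so depth outside them still differed (those rows took 53.6% to 63.9% of the gene reads of macrophage-like, 33.6% to 65.2% of EC-like and 29.9% to 66.9% of ASC-like cells). Fst was then seen in 61.2% of ASC-like cells and in 0.716% of EC-like cells (exact 95% interval 0.195 to 1.82), with 78.9% and 2.86% before thinning. Bmp6 was seen in 20.8% of EC-like cells (17.5 to 24.4) and in 7.43% of ASC-like cells, with 30.8% and 12.9% before thinning. Median depths were 669563 gene reads in ASC-like and 518420 in EC-like cells. Most EC-like cells had no Bmp6 read at this depth, although its level was highest there.

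In ASC-like cells each receptor was seen in more cells than each ligand. After thinning, Acvrl1 was seen in 67.9% of ASC-like, 44.9% of EC-like and 23.4% of macrophage-like cells. Bmpr2 was seen in 39.6%, 27.2% and 31.4% of these classes and Bmpr1a in 35.0%, 2.15% and 2.19%, in the last 2 classes below Bmp7 (5.19% and 21.9%). Where a gene was near 0 in a class, as Fst in EC-like cells (0.716%) or Bmp6 in macrophage-like cells (0.730%), a small share of cells still had a read. The Bmpr1a shares of EC-like and macrophage-like cells had exact 95% intervals of 1.11% to 3.72% and 0.454% to 6.27%, and the Fst share of EC-like cells one of 0.195% to 1.82%.

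**Figure D3:**
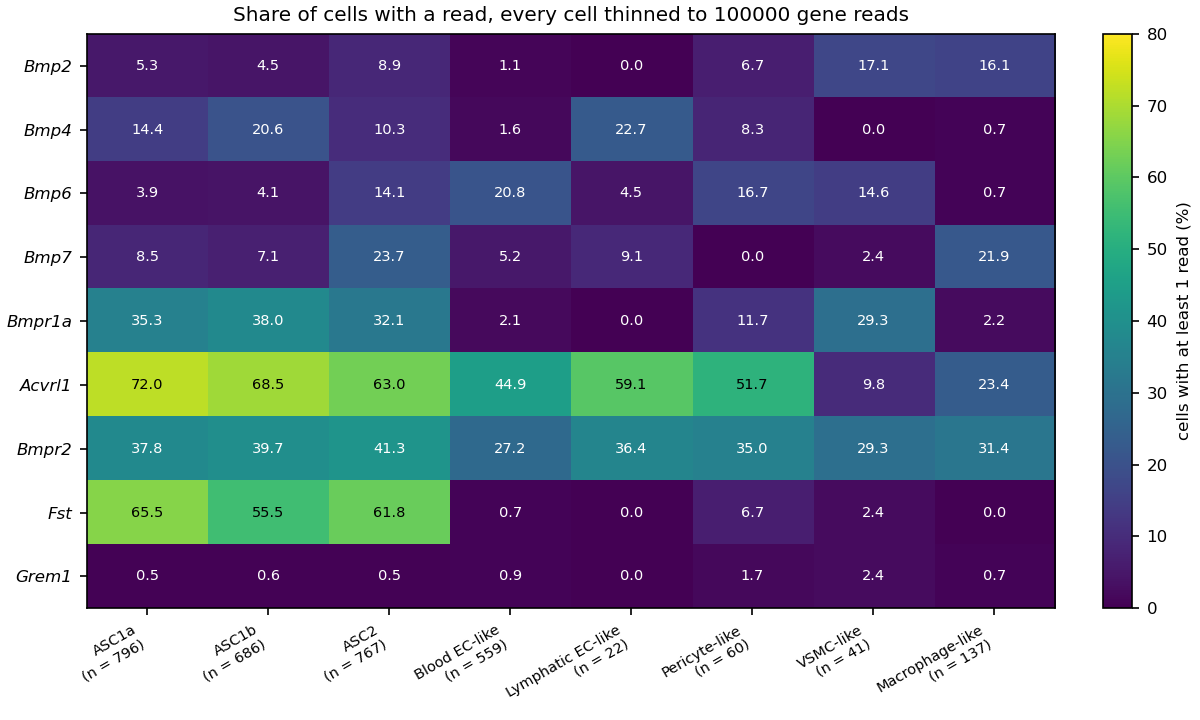
Percentage of cells with at least 1 read of each gene after thinning every cell to 100000 gene reads, for the 3 ASC subtypes, blood and lymphatic EC-like, pericyte-like, VSMC-like and macrophage-like cells, with the number of cells under each column. Acvrl1 and Fst were in most cells of each ASC subtype, Bmp7 in 23.7% of ASC2 and 21.9% of macrophage-like cells, and Fst in 0.716% of blood EC-like cells.

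Within ASC-like cells, the ligands separated the subtypes more than the receptors or Fst did. Each ASC-like cell was given to ASC1a (796 cells), ASC1b (686) or ASC2 (767) by its markers, compared within its mouse. Marker scores were scaled within each mouse and the highest was taken, so every mouse was split over all subtypes. Mouse 4, for example, was split into 125 ASC1a, 119 ASC1b and 119 ASC2 cells. In the paper's clusters, by contrast, male ASC2 cells came almost wholly from mouse 1, and mouse 1 had no cell in the male ASC1a cluster. A subtype here is thus a rank within a mouse. ASC2, scored by Dpp4, Cd55, Arl4d and Pi16, had higher Bmp7 and Bmp6. A total of 353 cells (15.7%) lay near a boundary between subtypes, so these are ranges of a score and not fully separate types.

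By count, 2 of 8 members tested were called for ASC2 against ASC1a, both higher, where 3.27% of 11156 genes were called, 1.69% higher and 1.58% lower. For ASC2 against ASC1b, 1 of 8 was called, where 2.93% of genes were, 1.25% higher and 1.69% lower. For ASC1b against ASC1a, edgeR called 0 of 8 members and 0.332% of genes. In that comparison 2 members had an unadjusted p below 0.05, and the likelihood ratio test and DESeq2 each called 0.

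Bmp7 in ASC2 was at 37.3, 116 and 76.6 CPM in males 1, 4 and 8 and at 10.1, 8.30, 5.85 and 2.97 CPM in females 2, 3, 5 and 6/7. In ASC1a it was at 1.41, 1.83 and 0.521 CPM in the same males and at 0.572, 0.600, 0.620 and 0.9503 CPM in the same females. All 7 mice had more Bmp7 in ASC2 than in ASC1a, and the ranges did not overlap. ASC1b cells had 0.486 to 4.95 CPM with a median of 0.773, and ASC2 was above ASC1b in 6 of 7 mice, the exception being mouse 6/7. The log2 fold change was 4.82 for ASC2 against ASC1a (SE 0.65, edgeR adjusted p = 8.08e-05) and 4.09 against ASC1b (SE 0.66, adjusted p = 0.000571), each called in 17 of 17 settings. The shares of cells with a Bmp7 read after thinning were 8.54% in ASC1a, 7.14% in ASC1b and 23.7% in ASC2. Mesothelial marker genes, summed over 4 genes, were at 44.7 to 242 CPM in ASC2 and 26.1 to 89.8 CPM in ASC1a, with up to 3 of the 4 genes at 0 in a mouse. In the order of that sum for ASC2, the males were lowest (mouse 8, 44.7 CPM), second lowest (mouse 1, 51.3 CPM) and second highest (mouse 4, 143 CPM, with the most Bmp7), and the highest was female 5, and its part in the Bmp7 level was not tested.

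Bmp6 in ASC2 was at 17.5, 22.04 and 10.7 CPM in males 1, 4 and 8 and at 5.43, 12.9, 10.5 and 3.21 CPM in females 2, 3, 5 and 6/7. ASC1a had 0.0827 to 4.09 CPM with a median of 1.17, and ASC1b had 0.116 to 6.13 CPM with a median of 2.48. ASC2 was above both other subtypes in 7 of 7 mice, although the ranges overlapped. The log2 fold change was 2.87 against ASC1a (SE 0.74, edgeR adjusted p = 0.0187) and 2.16 against ASC1b (adjusted p = 0.0807). The call against ASC1a was lost without mouse 1, 2 or 4 (edgeR adjusted p = 0.0640, 0.0637 and 0.0697). Within ASC-like cells Bmp6 was therefore highest in the subtype that also had the most Bmp7, at levels under those of EC-like cells (11.7 ± 6.54 CPM in ASC2 against 49.8 ± 22.5).

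Bmp4 had another order among the subtypes, with ASC1b on top. ASC1b cells had 14.9 to 24.4 CPM with a median of 21.9, ASC1a 1.82 to 19.6 CPM with a median of 13.3, and ASC2 2.74 to 13.9 CPM with a median of 8.46. ASC1b was above ASC1a and above ASC2 in 7 of 7 mice, and its range did not overlap that of ASC2 by CPM of all gene reads, although it did relative to reads outside ribosomal RNA (from 20.5 CPM in ASC1b, up to 35.2 CPM in ASC2). The log2 fold change of ASC2 against ASC1b was -1.31 (SE 0.37, edgeR adjusted p = 0.0369), a fold under the 2.6 required. It was -1.90 (edgeR adjusted p = 0.00821) without the cells near a boundary and -1.41 (adjusted p = 0.00232) without mouse 5. Against ASC1a, ASC1b was at 0.80 (edgeR adjusted p = 0.423) and ASC2 at -0.51 (adjusted p = 0.515).

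The remaining members were not called between subtypes. Bmp2 was higher in ASC2 than in ASC1a in 6 of 7 mice, at 1.58 to 14.003 CPM against 0 to 4.30 CPM (log2 fold change 1.67, SE 0.74, edgeR adjusted p = 0.205). Against ASC1b it was at 1.69 (edgeR adjusted p = 0.214), so that its fold was above the 2.6 required in both comparisons and its adjusted p was not below 0.05. Acvrl1 was lower in ASC2 than in ASC1a in 6 of 7 mice (log2 fold change -0.44, edgeR adjusted p = 0.0506). Fst was lower in ASC1b than in ASC1a in 7 of 7 mice (log2 fold change -0.53, edgeR adjusted p = 0.0521). Bmpr1a had mean levels of 23.0, 23.4 and 19.0 CPM in ASC1a, ASC1b and ASC2, and Bmpr2 of 21.7, 20.3 and 23.4 CPM.

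**Figure D4:**
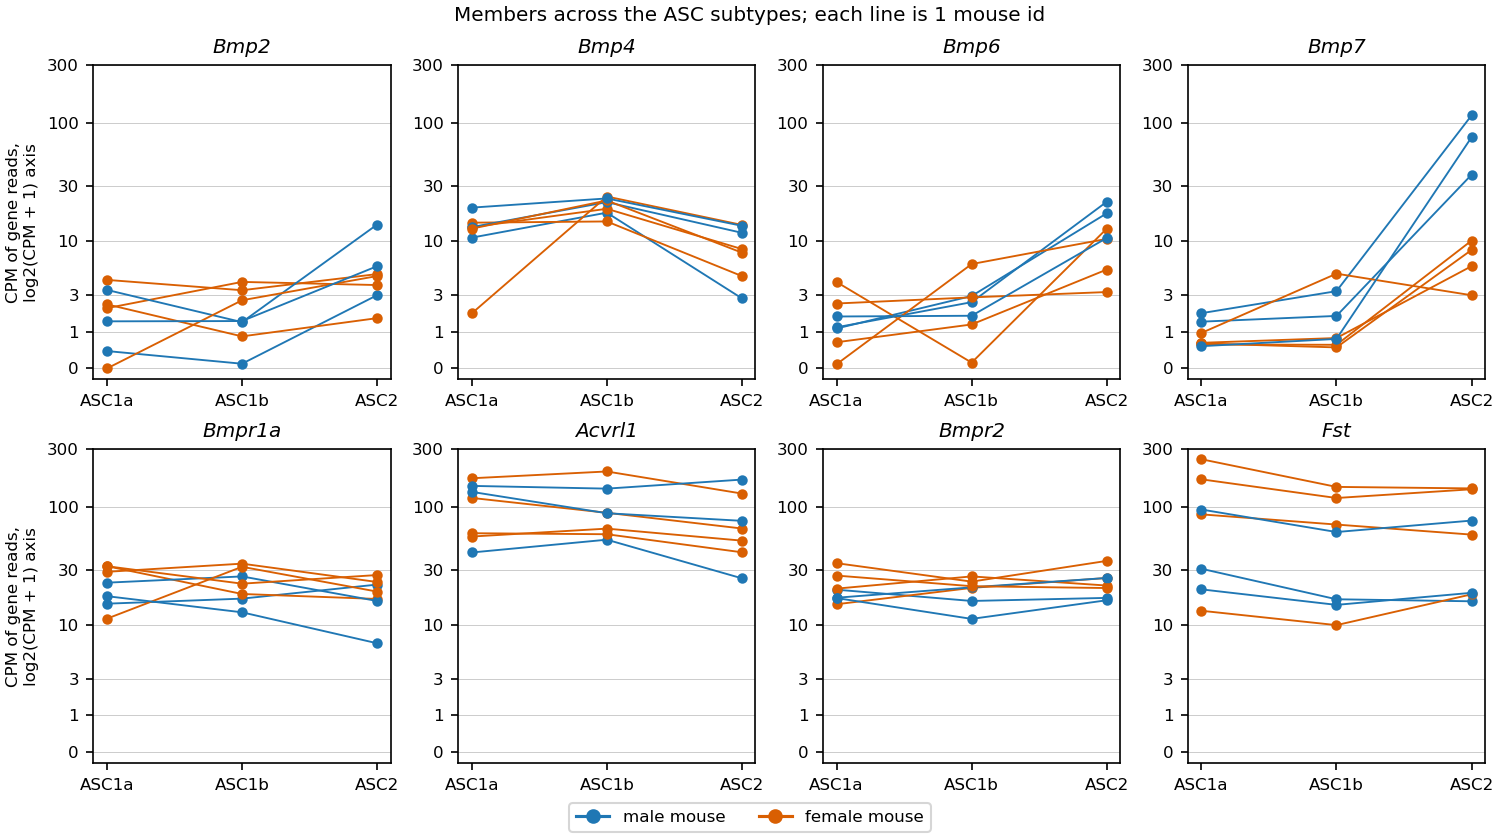
Level of 8 of the 9 genes (CPM of gene reads on a log2(CPM + 1) axis) in ASC1a, ASC1b and ASC2 cells, with 1 line per mouse id coloured by sex. Bmp7 and Bmp6 rose toward ASC2 in all 7 mice when set against ASC1a, Bmp4 peaked in ASC1b in all 7, and male lines stood above female lines for Bmp7 in ASC2.

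The plates of mouse 2 that had been sorted by DPP4 protein were also compared, and Bmp7 and Bmp6 were higher on the DPP4-positive plate. The DPP4-positive plate held 379 ASC-like cells, of which 253 had been scored ASC2, and the DPP4-negative plate held 368, of which 6 had. These are all 259 ASC2 cells of mouse 2 in the subtype fit above, so the plates are no separate check on it. In mouse 2, ASC2 against the other subtypes ran largely together with plate and sort, and their parts were not tested. Dpp4, which is also an ASC2 scoring gene, was at 178 CPM on the DPP4-positive and 1.72 CPM on the DPP4-negative plate. Bmp7 was at 7.17 CPM (6.87 to 7.48) in DPP4-positive and 0.550 CPM (0.468 to 0.643) in DPP4-negative cells, with a read after thinning in 12.4% and 4.35% of cells. Bmp6 was at 4.32 CPM (4.09 to 4.56) and 0.665 CPM (0.574 to 0.766). Bmpr1a, by contrast, was at 21.1 CPM (20.6 to 21.7) in DPP4-positive and 36.4 CPM (35.7 to 37.1) in DPP4-negative cells. Bmp4 was at 11.3 and 15.7 CPM, Acvrl1 at 75.3 and 108 CPM and Bmp2 at 5.02 and 3.37 CPM. There was 1 plate per sort, so plate and sort cannot be told apart and no test was made. Relative to reads outside ribosomal RNA the directions of Bmp7 (12.2 against 0.758 CPM), Bmp6 (7.34 against 0.915), Bmp4 (19.2 against 21.6) and Bmpr1a (35.9 against 50.2) were kept, while Fst went from 169.6 against 188.5 CPM to 288 against 259.6 CPM.

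Between the sexes, Bmp7 was the member that differed in ASC-like cells. It was at 14.6, 36.1 and 24.3 CPM in males 1, 4 and 8 and at 3.95, 3.44, 2.45 and 2.76 CPM in females 2, 3, 5 and 6/7. Every male was above every female, with means of 24.99 ± 10.8 CPM (n = 3) and 3.15 ± 0.675 CPM (n = 4). The log2 fold change of male against female was 3.62 (SE 0.29, edgeR adjusted p = 0.000290), a fold of 12.3. It was called in 16 of 16 settings with log2 fold changes from 2.98 to 3.78. The ASC-like sums differed in make-up between mice. That of female 2 held 379 of 747 cells from a DPP4-positive sort, and the paper's male ASC2 and ASC1a clusters were spread unevenly over the males. The part of this make-up in the sex difference was not tested.

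Of all 11819 genes tested between the sexes in ASC-like cells, 2.23% were called, 1.55% higher and 0.685% lower in males, beside 1 of the 8 members. The split over all genes depended on scaling. It was 183 higher and 81 lower with TMM factors and 87 higher and 224 lower with library totals alone, which moved the median over all genes, on the log2 scale, from 0.04 to -0.60. Genes induced by dissociation, summed over 10 genes, overlapped between the sexes at 4585 to 18496 CPM in males and 7071 to 17641 CPM in females. Ribosomal RNA rows took 29.9% to 66.9% of the gene reads of ASC-like cells. They took 54.1% or more in mice 1, 8 and 5 and 37.7% or less in mice 2, 3, 4 and 6/7, so both sexes had mice of either kind. Relative to reads outside those rows, Bmp7 had means of 51.8 ± 7.26 CPM for males against 5.18 ± 0.674 for females, and the groups stayed apart.

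Most of the Bmp7 of both sexes was in cells scored ASC2, which is a rank within each mouse. It was at 76.6 ± 39.4 CPM in male ASC2 against 6.80 ± 3.09 CPM in female ASC2, and relative to reads outside ribosomal RNA 162 and 11.7 CPM, without overlap between the sexes. In ASC1a and ASC1b the sexes overlapped. Sex was not tested within subtypes, nor was the difference of the sex effect between them. In blood EC-like cells, where Bmp7 was under the filter of the test between sexes, it was at 2.16 and 0.135 CPM in 2 males and at 0.626, 0.921 and 0.514 CPM in 3 females.

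The other members did not pass the test between the sexes. Bmp6 had means of 6.65 ± 1.89 CPM for males against 4.26 ± 1.87 for females (log2 fold change 1.31, edgeR adjusted p = 0.175), and Bmp4 at 15.0 ± 4.63 and 12.8 ± 1.27 CPM (0.96, adjusted p = 0.175). Fst was at 21.2, 77.5 and 18.4 CPM in males 1, 4 and 8 and at 179, 72.3, 14.1 and 145 CPM in females 2, 3, 5 and 6/7. The sexes overlapped widely in Fst (log2 fold change -0.87, edgeR adjusted p = 0.468), and mice 1, 8 and 5, which had the most ribosomal RNA, were its 3 lowest, also relative to reads outside those rows (64.0, 44.2 and 30.7 CPM against 103 to 273 CPM). Bmpr1a and Bmpr2 were lower in males by CPM, at 17.9 against 24.9 and 18.1 against 24.7. Relative to reads outside ribosomal RNA they were at 39.9 against 41.2 and 40.7 against 41.6 CPM, and in the fit they were at 0.21 and 0.25 (edgeR adjusted p = 0.675 and 0.646). Acvrl1 was at 0.73 (edgeR adjusted p = 0.359) and Bmp2 at 0.71 (adjusted p = 0.460).

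**Figure D5:**
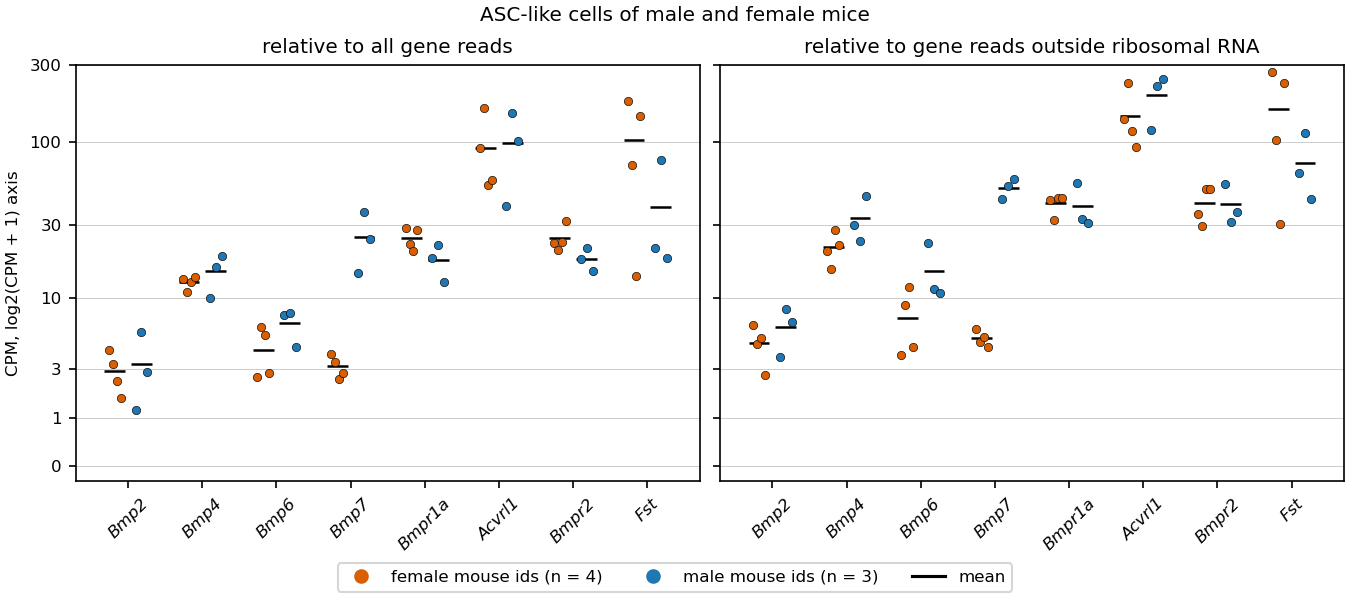
Level of 8 of the 9 genes in ASC-like cells of 4 female and 3 male mouse ids, relative to all gene reads (left) and to gene reads outside ribosomal RNA (right), on a log2(CPM + 1) axis with a line at each mean. Bmp7 was the gene whose sexes stood apart on both sides, at means of 24.99 against 3.15 CPM on the left and 51.8 against 5.18 CPM on the right.

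In EC-like cells 3 members passed the filter between 2 male and 3 female mouse ids, and 0 were called, beside 0.0494% of 8102 genes. Bmp6 had means of 48.4 ± 44.7 CPM for males against 50.7 ± 3.43 for females (log2 fold change 0.66), Acvrl1 at 89.4 and 153 CPM (-0.06) and Bmpr2 at 15.5 and 42.4 CPM (-0.61). By edgeR's quasi-likelihood test 0 of these 3 had an unadjusted p below 0.05. For the interaction of sex and class, 0 of 12203 genes were called (0%), and 770 had an unadjusted p below 0.05. The interaction of Bmp7 was -2.86 (SE 1.73, edgeR adjusted p = 0.794), so that its sex effect was not shown to differ between the 2 classes.

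The rest of the pathway was counted over 5 lists, which held 13 other ligands (10 of them rows of the matrix), 10 other receptors and co-receptors (9), 14 other antagonists and binding proteins (12), 6 signal transducers (6) and 10 target genes (10). In EC-like against ASC-like cells, 4 of 5 other ligands tested were called lower and 0 higher. Of all genes 13.6% were called lower and 8.19% higher. Genes near 0 in EC-like cells could pass the filter only through other classes, so counts of lower genes lean upward. Of 8 other antagonists 6 were called lower and 0 higher, with a median log2 fold change of -5.94. Of the receptors tested 1 of 7 was higher and 1 lower, of the transducers 1 of 5 higher, and of the targets 2 of 9 higher.

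Gdf10, which encodes the BMP3-related ligand BMP3B, was at 395 ± 279 CPM in ASC-like and 0.556 ± 0.568 CPM in EC-like cells (log2 fold change -9.66, edgeR adjusted p = 0.000483). Bmper, which encodes a secreted BMP-binding protein, was at 124 ± 73.9 and 0.426 ± 0.494 CPM (-8.83, edgeR adjusted p = 0.000147). Bmp8a had 2 reads in EC-like cells against 8.28 ± 8.55 CPM in ASC-like cells.

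Higher in EC-like cells were Eng, the co-receptor endoglin that acts with ALK1, at 1235 ± 467 against 127 ± 50.9 CPM (log2 fold change 3.39, SE 0.28, edgeR adjusted p = 4.12e-05), and the targets Hey1 and Id1. Id1, an inhibitor of basic helix-loop-helix factors and a direct BMP target, was at 359 ± 199 against 20.4 ± 12.2 CPM (log2 fold change 4.25, edgeR adjusted p = 0.000391). Hey1, a target of Notch as well as of BMP, was at 33.7 ± 19.1 against 1.87 ± 1.45 CPM (log2 fold change 4.30, edgeR adjusted p = 0.000920). The class with the least Bmpr1a, apart from macrophage-like cells, thus had the highest mean Eng and Id1.

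In mural-like cells the same 3 genes were called higher against ASC-like cells, where 8.14% of all genes were called in either direction. Hey1 had a log2 fold change of 5.62 (edgeR adjusted p = 0.00528), Id1 of 2.94 (adjusted p = 0.0248) and Eng of 2.16 (adjusted p = 0.00756). The EC markers in the mural sums are given above, and Eng was at 226 CPM in mouse 1, with 523 CPM of those markers, and 719 CPM in mouse 2, with 5342 CPM. Of the other ligands 2 of 5 were lower and of the antagonists 3 of 8, among them Bmper at -7.98 (edgeR adjusted p = 0.00954) and the ligand Gdf10 at -6.94 (adjusted p = 0.0412). Of the transducers 0 of 5 were called.

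In macrophage-like cells every called gene of these lists was lower than in ASC-like cells, where 9.12% of all genes were called lower and 5.94% higher. Of the targets 6 of 9 were lower, of the antagonists 4 of 8, of the receptors 3 of 7, of the ligands 2 of 5 and of the transducers 0 of 5, and 0 were higher. Bmper was at -11.27 on the log2 scale (edgeR adjusted p = 0.00211) from 5 reads in macrophage-like cells, and Gdf10 at -10.07 (adjusted p = 0.0100) from 36 reads. These 3 comparisons share the ASC-like sums. Between EC-like and mural-like cells, 2 of 8 antagonists were lower in EC-like cells, where 2.29% of all genes were called. They were Nbl1 at -6.45 (edgeR adjusted p = 0.00179) and Fstl1 at -2.75 (adjusted p = 0.00648), both secreted proteins, and 0 of the other lists were called.

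Between the ASC subtypes few other genes of the pathway were called. Of all genes 3.27% were called for ASC2 against ASC1a, 2.93% for ASC2 against ASC1b and 0.332% for ASC1b against ASC1a. ASC2 against ASC1a had 1 of 10 antagonists and 1 of 4 ligands lower, Bmper at -1.48 (edgeR adjusted p = 0.00153) and Bmp5 at -2.41 (adjusted p = 0.0360). ASC2 against ASC1b had Gdf10 lower at -1.74 (edgeR adjusted p = 0.000223) and Bmp8a higher at 3.87 (adjusted p = 0.0260). Gdf10 was at 638 ± 499 CPM in ASC1b and 191 ± 138 CPM in ASC2, and Bmp8a at 4.22 ± 7.21 and 16.1 ± 15.8 CPM. ASC1b against ASC1a had 0 called in any list, with 10 genes of the lists at an unadjusted p below 0.05 by edgeR's quasi-likelihood test.

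Between the sexes, 4 other genes of the pathway were called in ASC-like cells, all higher in males, of 34 tested. Of all genes 1.55% were called higher and 0.685% lower in males. Gdf10 had means of 648 ± 233 CPM for males against 206 ± 92.4 for females (log2 fold change 2.42, SE 0.42, edgeR adjusted p = 0.0178). Chrdl1, which encodes the antagonist chordin-like 1, was at 27.8, 65.5 and 299.5 CPM in the 3 males and between 4.08 and 22.1 CPM in the 4 females (log2 fold change 4.43, SE 0.87, edgeR adjusted p = 0.0327). The target Msx1, a homeobox gene, was at 13.5 ± 5.87 and 6.41 ± 2.78 CPM (log2 fold change 1.74, edgeR adjusted p = 0.0442). In EC-like cells 0 of the 17 other genes tested were called, beside 0.0494% of all genes, and 0 had an unadjusted p below 0.05 by edgeR.

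Ligands were also counted with each other and with the receptors in single ASC-like cells after thinning. All counts come from the same 2249 cells, which share their depth and were pooled over mice and subtypes that differ in these genes. Mouse 4 alone held 233 ASC-like cells with Bmp7, 93 with Bmp6 and 77 with Bmp2 before thinning, among its 363, and the part of this pooling in the shares below was not tested. Bmp7 was seen in 51 of 167 cells with Bmp6 (30.5%) and in 34 of 141 cells with Bmp2 (24.1%), against 13.3% of all ASC-like cells. Of 335 cells with Bmp4, 9.85% had Bmp7 and 5.07% had Bmp6, against 13.3% and 7.43% of all. The receptor Bmpr1a was seen in 31.3% of Bmp4 cells, 33.5% of Bmp6 cells and 34.8% of Bmp7 cells, near its 35.0% of all. Fst was seen in 49.3% of Bmp4 cells and in 61.2% of all. In EC-like cells Bmp6 and Acvrl1 met in 57 of 116 Bmp6 cells (49.1%), against Acvrl1 in 44.9% of all EC-like cells.

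As a description, in which sums of the same mouse are not independent, genes were ranked by Pearson's r of log2(CPM + 1) over the 16 mouse-by-class sums. The genes most like each member were named from 12841 genes. For Bmp4 these were AI464131 (r = 0.98), Actr3b and Ndrg4 (0.97 each), for Bmp6 Pdzd2, Cavin2 and Adarb1 (0.96 each), and for Bmp7 they included Lpar3 (0.93) and D630003M21Rik (0.92). For Bmp2 they were Arhgef10l, Gfra2 (0.90 each) and Irf4 (0.89). For Fst they were Ptx3, Bdh2 and Palm3 (0.99 each), and for Bmpr1a Plac9b, Antxr1 and Gm9780 (0.98 each), where reads of Plac9b may be shared with a near-identical copy. For Bmpr2 they were Tmigd1, Mycbp (0.92 each) and 1190007I07Rik (0.91), and for Acvrl1 Cog3 (0.94), Actr1a and Pfkp (0.92 each). Grem1 was most like Lmod1 (0.94), Kcna2 (0.88) and Cnn1 (0.87), of which Lmod1 and Cnn1 are smooth muscle genes. No member was among the 3 genes most like another member.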

How the data were processed

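Single-cell Smart-seq2 libraries were made by the authors from sorted cells, with cDNA fragmented by Tn5 and sequenced as single reads. Per the labels, bcl2fastq, STAR, Salmon and the mm10 build were used, the versions of these tools not being given in the sources used here. The deposited values are raw counts of reads per gene and cell, whole numbers that had passed the authors' filters on cells and on genes with low counts. No source used here says how Salmon's estimates became whole numbers. The 72 ERCC spike-in rows (1.98% of reads) were left out of library sizes. No doublet caller was run. The authors removed some cells that lay near other clusters, and 60 ASC-like, 15 EC-like, 44 mural-like and 3 macrophage-like cells rich in the markers of another class remained.

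Cells were clustered in Seurat 5.3.0 on 3000 variable genes without the BMP lists (14 components, resolution 1.1, 500000 as scale factor), which gave 18 clusters. Clusters were named from at least 3 markers with reads in at least 25% of their cells, and 2 clusters (174 cells) stayed unnamed. With the BMP genes left in, 3258 of 3261 cells kept their name. Counts were summed per mouse and class over at least 10 cells. Sums were fitted in edgeR 4.0.16 (R 4.3.3) with TMM factors, the quasi-likelihood F test and the mouse as a block in comparisons of classes and subtypes, since the labels tie those sums to the same mouse id. The fit holds all 4 classes, or all 3 subtypes, and both sexes share no mouse, so sex was fitted without a block. Genes had to exceed 600 summed counts in at least 2 sums. A run on simulated counts, with a fixed change in 1 group and no differences between mice, scored only the first comparison of each fit. The mural-like and macrophage-like comparisons were not checked by it. DESeq2 1.42.0 was an alternative, and figures and summaries were made with Python 3.11.15, pandas 2.3.3, scipy 1.17.1 and matplotlib 3.10.9. In the blocked fits p-values measure how far differences between classes or subtypes vary from mouse id to mouse id. All classes or subtypes of a fit share the estimate of that spread. In the fits of male against female cells they measure the spread between mouse ids. Id 6/7 joins 2 animals.

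All 9 members were reported in every comparison, and other pathway genes by counts, with values for at most 3 called genes per direction by size of fold. The members, lists and tests were chosen with earlier results of these data known. CPM is counts per 1000000 gene reads. Levels relative to reads outside ribosomal RNA rows were added after the data had been seen. Alternatives were other scaling, filters, tests, class names and cell minimums, no block, and leaving out each mouse. Depth limits genes with few reads, and intervals cover counting error only. A gene that the rule on likeness named is not reported here.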

Additional observations from a re-analysis of the deposited data

Results flagged for a closer look

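In 81 groups of 4 to 10 mouse ids, 9 had a mouse far from the rest by Dixon's test at the 95% level, where chance gives about 1 in 20. Bmp2 in ASC2 cells was at 14.003 CPM in mouse 4, where the next mouse had 5.85 CPM. Bmp4 in EC-like cells was at 4.76 CPM in mouse 1, where the next had 0.774 CPM. In female ASC1a cells, mouse 5 was low in both Bmp4, at 1.82 CPM against 12.9 CPM in the next mouse, and Bmpr1a, at 11.4 CPM against 28.9 CPM, from 35 cells. Bmp7 was high in mouse 6/7 among females, at 0.9503 CPM in ASC1a cells, where the next had 0.620 CPM, and at 4.95 CPM in ASC1b cells, where the next had 0.773 CPM. Grem1 was high in mouse 4 in ASC1a cells, at 0.261 CPM against 0.0692 CPM, and in ASC2 cells, at 2.91 CPM against 0.0382 CPM. Grem1 was at 0.0180 CPM in the female ASC1b cells of mouse 6/7, where the other 3 females were at 0. What set these mice apart was not tested.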

How the results depend on the processing

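Single-gene values were counted for members and comparisons with an unadjusted p below 0.05 in the main edgeR fit, or with a call in some setting. Under settings other than leaving out a mouse, 312 of these kept their direction and side of the threshold. A further 24 passed it anew, 5 no longer did and 0 turned direction. With each mouse left out in turn, 208 stayed, 22 fell short, 5 passed anew and 1 turned. The counted value that turned was Bmp2 in EC-like against mural-like cells without mouse 1, at 4.02 on the log2 scale (SE 6.91). Its main value was not called, and leaving out another mouse gave -5.93 to -4.51. Values outside this count, called in 0 settings, also turned. Fst in EC-like against mural-like cells ran from -6.41 to 6.91, and Bmp4 from -2.59 to 8.79. Bmp2 in mural-like against ASC-like cells ran from -11.47 to 1.14. Between the sexes in ASC-like cells Bmpr1a ran from -0.47 to 0.36 and Bmpr2 from -0.45 to 0.44.

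Members called in mural-like against ASC-like cells went from 0 to 1 with library totals, to 4 with the likelihood ratio test, to 4 with DESeq2 and to 3 with no replicate block. In EC-like against mural-like cells the count went from 1 to 3 with DESeq2, to 2 with no replicate block, to 0 with at least 20 cells per sum, to 0 with each cell named by its own markers, and to 3 without cells rich in the markers of another class. In ASC2 against ASC1b it went from 1 to 2 with the likelihood ratio test, to 2 with DESeq2 and to 2 without cells near a boundary. The pairing by mouse comes from the labels, and dropping the block changed 1 further call, that of Bmp4 in EC-like against ASC-like cells.

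Leaving out each mouse gave 4 to 6 members for EC-like against ASC-like cells, 0 to 2 for mural-like, 0 to 4 for macrophage-like, 0 to 1 for EC-like against mural-like, 1 to 2 for ASC2 against ASC1a, 1 to 3 for ASC2 against ASC1b and 0 for ASC1b against ASC1a. It gave 1 between the sexes in ASC-like cells and 0 in EC-like cells. The largest count for ASC2 against ASC1b was without mouse 5, and for mural-like cells without mouse 1. In macrophage-like cells the single calls of Acvrl1 were lost without mouse 1, 2 or 5 (edgeR adjusted p = 0.301, 0.0819 and 0.136), of Bmpr1a without 1 or 5 (0.180 and 0.125), of Fst without 1 or 5 (0.0920 and 0.0758) and of Bmp6 without 5 (0.0794). Where such a fit left 1 sum in a class, that sum was assumed to vary like the others. Acvrl1 in macrophage-like against ASC-like cells was called in 14 of 19 settings, so its call was also lost in settings that kept every mouse. Bmp6 in ASC2 against ASC1b passed with the likelihood ratio test (edgeR adjusted p = 0.0220), with DESeq2 (0.00573) and without mouse 5 (0.0264). The causes were not tested.

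Relative to reads outside ribosomal RNA rows, mean levels rose to 35.8 CPM for Bmp2 in macrophage-like cells, 26.5 for Bmp4 and 40.7 for Bmpr1a in ASC-like cells, 103.7 for Bmp6 and 260.9 for Acvrl1 in EC-like cells, 68.5 for Bmpr2 and 9.21 for Grem1 in mural-like cells, since the total shrank by construction.

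Over all genes, the count of calls moved by over 1.5 times in these cases. For mural-like against ASC-like cells 1045 became 1948 with the likelihood ratio test, 2409 with DESeq2, 1615 with no block, 285 with 20 cells per sum, 196 with cells named by own markers and 346 without cells rich in other markers. For macrophage-like cells 1934 became 2910 and 3250 with the first 2 of these. For EC-like against mural-like cells 294 became 885, 1180, 723 with no block and 1036 without rich cells. For ASC2 against ASC1a 365 became 175 with no block, for ASC2 against ASC1b 327 became 106, and for ASC1b against ASC1a 37 became 90, 108 and 2. Between the sexes in ASC-like cells 264 became 552 and 592, and 170 and 169 with the looser filters. In EC-like cells 4 became 60 and 109, 1 with RLE factors and 0 with the looser filters or own markers.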
